A study of Homo sapiens with 8 samples.

Results

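Glucosamine given for 24 h changed the RNA of the Hodgkin lymphoma line KMH2 across a broad front of genes, and the response is described here over all genes measured. The groups were set by the sample titles alone: 3 arrays of KMH2 control cells and 3 arrays of KMH2 cells after 24 h of glucosamine, 6 of the 8 arrays of the series, the other 2 being arrays of Ramos, a Burkitt lymphoma line. Both KMH2 groups were grown in RPMI GlutaMAX medium with heat-inactivated FBS and antibiotics and differ by the treatment alone as far as the labels say. The sources used here do not give the dose of glucosamine, nor whether the controls received a vehicle or another sugar. The design text calls the arrays of each group biological replicas of KMH2 before and after treatment, so all 6 come from 1 line. Total RNA was hybridised to a whole-transcript Affymetrix array, and each value below is a log2 signal, on which a step of 1 is a 2-fold difference. The array holds 33297 probe sets, of which those paired with exactly 1 gene symbol stand for 17958 genes, with 1 probe set kept per gene. Differences are glucosamine minus control, n = 3 per group, with adjusted p-values from limma.

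Glucosamine is an amino sugar that enters cells through glucose transporters and is phosphorylated by hexokinases. The product joins the hexosamine pathway past its rate-limiting enzyme, so that it can raise the pool of UDP-N-acetylglucosamine, the donor sugar of N-linked glycans in the endoplasmic reticulum and of O-GlcNAc on nuclear and cytosolic proteins. Hodgkin tumour cells, the Reed-Sternberg cells, derive from B cells, no longer express many B-cell genes, carry CD30 on their surface and secrete chemokines such as CCL17.

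Defining markers were read first. In control cells TNFRSF8, the gene of CD30, stood at 8.85, 8.71 and 8.65, and MS4A1, the gene of the B-cell antigen CD20, at 3.72, 3.55 and 3.82, near the low end of the scale. Mean signals over 14 T-cell and NK-cell markers ran from 5.48 to 5.54 over the 6 arrays, those over 10 myeloid markers from 5.29 to 5.43, those over 14 fibroblast, epithelial and endothelial markers from 4.87 to 5.00 and those over 6 erythroid and platelet markers from 4.16 to 4.34. The mean over 9 B-cell genes that Hodgkin cells typically lack was 6.03 to 6.14, although EBF1 (8.18, 8.67 and 8.56 in controls) and SPIB (8.22, 7.87 and 8.01), both B-cell transcription factors, stood above the array medians. Over 13 markers of Hodgkin tumour cells the mean was 8.97 to 9.34. Of the 44 markers of other cell types 1 passed the test, CD14, a receptor for bacterial lipopolysaccharide, which fell by 1.08. The median signals of these lists were 4.23 to 5.22. They lie in deciles 2 to 4 of all genes by signal, where 5.51% to 11.7% passed, against 26.1% of all genes. The low count is to be read beside these shares. The median signal of an array was 5.62 to 5.67. The first principal component, 68.8% of the variance, separated treated from control arrays. The second, 17.8%, set the replicate 1 arrays of both groups apart from replicates 2 and 3, so overall and list counts are also given without them.

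Of the 17958 genes, 2159 (12%) rose and 2533 (14.1%) fell, so that 26.1% passed the threshold of adjusted p = 0.05. Without both replicate 1 arrays 2522 rose and 2638 fell. The order of these counts turned with upper-quartile centring (2529 rose and 2197 fell), which moved the median of all genes from 0.01 to 0.04. Small changes made up most of the response: the median size among called genes was 0.37, the smallest was 0.15, and the median standard error of a difference was 0.066. Rises of at least 1.5-fold numbered 341 and falls 523, and at 2-fold these numbers were 74 and 81. At 3-fold there were 12 rises and 6 falls, and at 4-fold 10 rises and 1 fall. Of the 4692 called genes 4691 had the same sign in all 3 replicate pairs, and in 4686 (99.9%) the treated arrays lay wholly outside the range of the controls, as they did in 41.1% of all genes. Groups that do not overlap give the same sign in any pairing. The count of signs thus follows almost wholly from the separation and is no further check. The 95% confidence interval lay within 1.5-fold of no change in 87.8% of genes and within 2-fold in 97.7%. At the threshold itself stood the endonuclease gene MUS81, called at -0.23 (adjusted p = 0.0498, and 0.0517 with the replicate block), and LINC00205, a non-coding RNA, not called at 0.22 (adjusted p = 0.050). Another 1836 genes that were not called had an unadjusted p under 0.05.

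**Figure D1:**
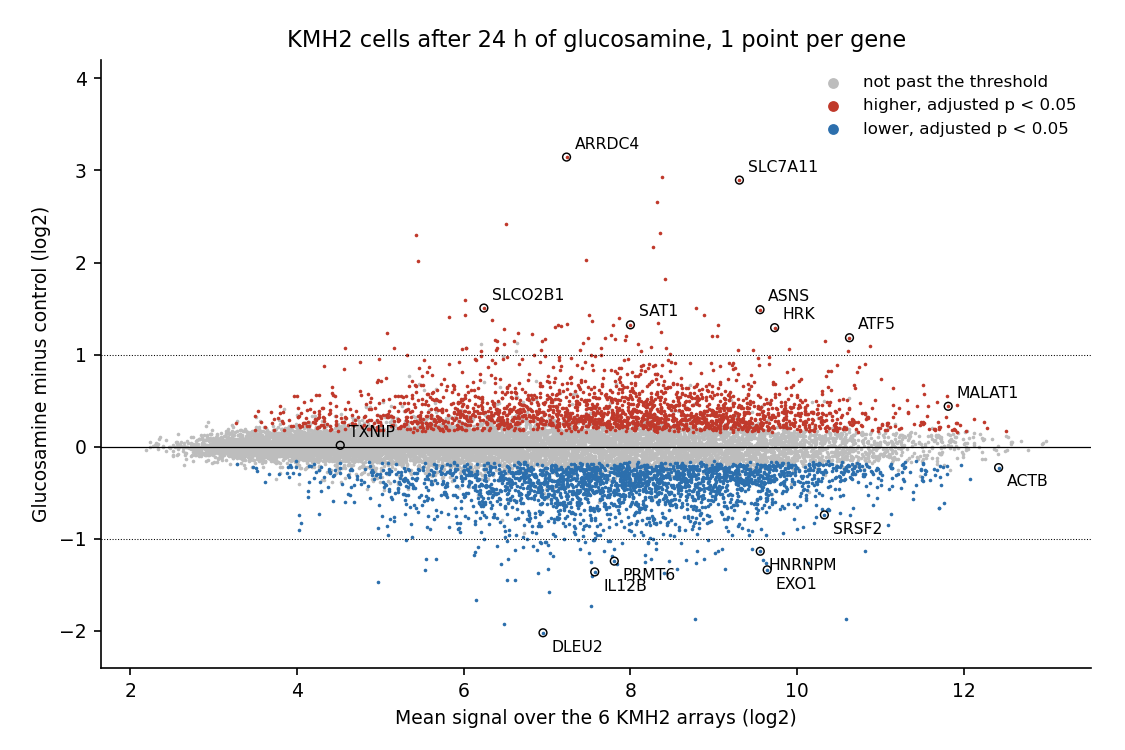
Difference between glucosamine and control (log2, vertical) against mean signal over the 6 KMH2 arrays (log2, horizontal), with 1 point per gene, red for genes that rose, blue for genes that fell and grey for the rest, and dotted lines at 2-fold. The 74 rises past 2-fold reach higher than the 81 falls reach low, and few genes below a signal of 5 are coloured.

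The share of genes called followed the signal. In the decile of genes with the lowest mean signal 1.39% were called, in the sixth decile 34.4% and in the eighth 48.9%, after which it was 42.5% in the highest decile. In each of the lower 5 deciles more genes rose than fell, and in each of the upper 5 more fell than rose, with the signals as deposited. Gene families that lymphocytes do not normally use served as a floor. Among 493 genes of the olfactory receptors, keratin-associated proteins, bitter taste receptors, beta-defensins and cornified envelope families, with a median signal of 4.03, 9 rose and 8 fell (3.45%). The share of calls in any list below is to be read beside its signal as well as beside the 26.1% of all genes.

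**Figure D2:**
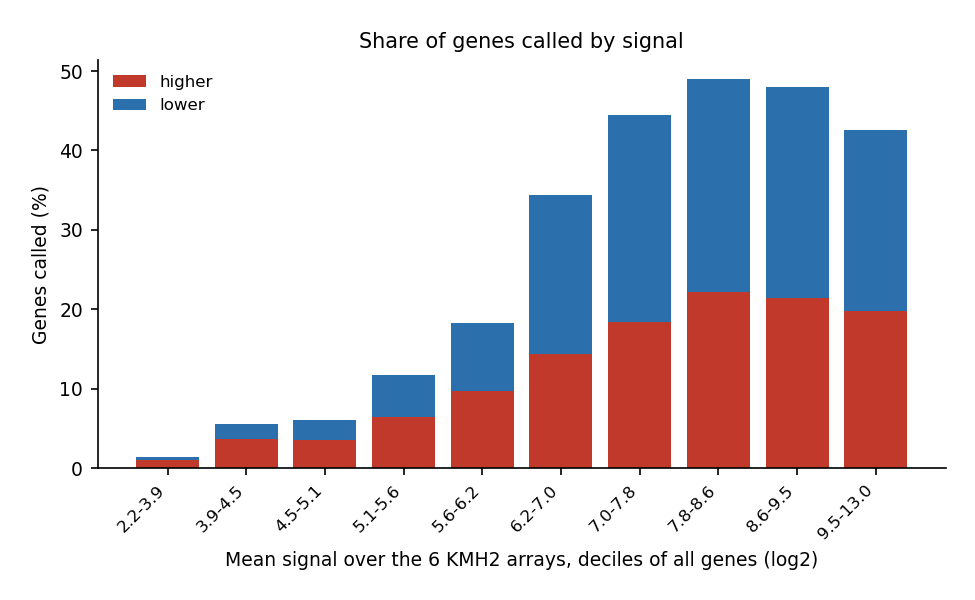
Share of genes that rose (red) and fell (blue), in percent, in each decile of the 17958 genes ordered by mean signal over the 6 arrays (log2). The share climbs from 1.39% in the lowest decile to 48.9% in the eighth, with falls ahead of rises from the sixth decile on.

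Below the 12 largest rises came a run of transporters, stress regulators and enzymes. SLCO2B1, an organic anion transporter of the plasma membrane, read 5.52, 5.47 and 5.47 on the control arrays and 7.02, 6.96 and 7.01 on the glucosamine arrays. It rose by 1.51 (95% interval 1.39 to 1.62, adjusted p = 4.67e-06), and no array of either group came near the range of the other. JMY, a p53 cofactor that also nucleates actin filaments, read 7.88, 8.07 and 8.14 on the control arrays and 9.54, 9.58 and 9.48 on the glucosamine arrays and rose by 1.5. SAT1, the enzyme that acetylates spermine and spermidine for export or breakdown, rose by 1.32, its arrays reading 7.33, 7.31 and 7.37 on the control arrays and 8.62, 8.68 and 8.69 on the glucosamine arrays. All treated arrays of both genes lay more than 1 log2 unit above every control. KLF10 (by 1.43), a zinc finger repressor induced by TGF-beta, JUN (by 1.40), a subunit of AP-1, and ARRDC3 (by 1.33), an arrestin-domain relative of ARRDC4, also rose. So did FERMT2 (by 1.41), which activates integrins, CCPG1 (by 1.33), a receptor for autophagy of the endoplasmic reticulum, GOLGA5 (by 1.36), a tether of Golgi vesicles, and SLC1A4 (by 1.32), a neutral amino acid transporter.

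Several rises stood in genes whose upstream sequence is held in the RefSeq promoter table, and these are printed because each holds a motif tied in textbooks to a stress or nutrient response. ASNS, asparagine synthetase, read 8.81, 8.71 and 8.92 on the control arrays and 10.28, 10.29 and 10.33 on the glucosamine arrays and rose by 1.49 (95% interval 1.34 to 1.64, adjusted p = 1.14e-05). HRK, a pro-apoptotic BH3-only gene of the BCL2 family, read 9.12, 9.09 and 9.04 on the control arrays and 10.36, 10.41 and 10.36 on the glucosamine arrays and rose by 1.29. In both genes the lowest treated array exceeded the highest control by over 1 log2 unit. GCLM, the modifier subunit of the enzyme that starts glutathione synthesis, rose by 1.34, and ARRDC4, which had the largest rise of any gene, by 3.15. The 250 bases before the RefSeq start (GRCh38.p14) follow, 5′ to 3′ along the gene's strand, with the motif in capitals. The capitals mark the C/EBP-ATF response element TGATGNAA in ASNS (chr7:97872409-97872658, minus strand), where it begins 68 bases before the start, and in HRK (chr12:116881442-116881691, minus strand), where it begins 75 bases before. In GCLM (chr1:93909431-93909680, minus strand) they mark the antioxidant response element TGACNNNGC, found on the opposite strand from 34 bases before the start. In ARRDC4 (chr15:97960453-97960702, plus strand) they mark the E-box CACGTG, which begins 210 bases before the start.
ASNS: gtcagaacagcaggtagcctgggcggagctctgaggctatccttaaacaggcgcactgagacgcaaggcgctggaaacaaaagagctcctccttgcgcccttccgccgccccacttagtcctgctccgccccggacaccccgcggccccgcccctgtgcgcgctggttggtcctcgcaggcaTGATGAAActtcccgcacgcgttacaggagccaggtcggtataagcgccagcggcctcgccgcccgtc
HRK: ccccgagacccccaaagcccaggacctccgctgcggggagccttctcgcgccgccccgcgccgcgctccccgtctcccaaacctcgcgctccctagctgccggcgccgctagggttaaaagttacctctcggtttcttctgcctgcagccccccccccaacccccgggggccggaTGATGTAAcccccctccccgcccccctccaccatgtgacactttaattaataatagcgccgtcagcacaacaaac
GCLM: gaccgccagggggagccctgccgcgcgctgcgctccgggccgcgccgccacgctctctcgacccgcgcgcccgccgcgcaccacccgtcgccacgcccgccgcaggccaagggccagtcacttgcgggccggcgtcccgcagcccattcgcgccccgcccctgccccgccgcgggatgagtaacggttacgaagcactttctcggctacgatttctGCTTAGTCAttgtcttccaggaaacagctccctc
ARRDC4: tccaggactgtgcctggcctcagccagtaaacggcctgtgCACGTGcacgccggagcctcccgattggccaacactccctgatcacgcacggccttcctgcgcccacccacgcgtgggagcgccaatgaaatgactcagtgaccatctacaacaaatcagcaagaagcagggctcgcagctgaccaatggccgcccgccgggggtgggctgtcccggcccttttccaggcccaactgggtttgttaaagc
Over all 27305 RefSeq windows of 250 bases before to 50 after the start, searched on both strands, 3.67% held TGATGNAA, 13.6% TGACNNNGC and 7.43% CACGTG. Windows were held for 13861 of the 17958 genes, under 80%, so a comparison of motif shares between rising genes and others was void and is not given. The genes printed were picked for holding a motif. The windows of TRIB3, SESN2, ATF5 and PPP1R15A, which also rose at least 2-fold, hold no TGATGNAA. A role of any motif in the rises was not tested. TXNIP, the other standard target of the glucose sensor MondoA beside ARRDC4, differed by 0.01 (95% interval -0.12 to 0.15). The exact letters CACGTG do not occur in the same 250 bases of its window. Inexact forms of the site were not searched over all windows, but these bases of TXNIP do hold forms that differ from it by 1 letter. The lack of the exact letters thus does not show that TXNIP lacks such a site. Whether the site bears on the difference between TXNIP and ARRDC4 was not tested.

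Among the remaining rises of ranks 13 to 40 were 3 more genes with roles in stress responses. TRIB3, a pseudokinase that binds AKT and ATF4, rose by 1.21. SESN2, a leucine sensor that restrains mTORC1, rose by 1.32, and DNAJB9, a chaperone of the endoplasmic reticulum, by 1.23. Whether they share a regulator with each other or with the genes above was not tested. ULBP1, a ligand of the NKG2D receptor of NK cells, rose by 1.27, APOL6, an apolipoprotein L of the interferon response, by 1.30, and NLRP11, a member of the NOD-like receptors, by 1.38. BCHE, butyrylcholinesterase, rose by 1.24, and TNFAIP6, a secreted protein that binds hyaluronan, by 1.20. KDM7A, a demethylase of histone H3, read 7.28, 7.43 and 7.32 on the control arrays and 8.39, 8.70 and 8.56 on the glucosamine arrays and rose by 1.21. REPS2, an adaptor of endocytosis, rose by 1.24 from 7.42, 7.97 and 7.84 on the control arrays and 8.41, 9.33 and 9.21 on the glucosamine arrays. Its treated replicate 1 lay well below the other two, and the lowest treated array stood 0.45 above the highest control. TCP11L2 (by 1.42), RANBP3L (by 1.31) and ANO10 (by 1.20), a member of the anoctamin family, also rose. SNORD45C and SNORD14E, small nucleolar RNAs made from introns, rose by 1.43 and 1.23, and since SNORD45C lies within RABGGTB the probes of the pair may share RNA.

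Falls below the first 12 were led by genes of cell division, DNA repair and immune signalling. HMMR, a spindle protein that also binds hyaluronan, fell by 1.37. EXO1, an exonuclease of mismatch repair and end resection, read 10.38, 10.21 and 10.34 on the control arrays and 8.98, 8.96 and 8.97 on the glucosamine arrays and fell by 1.34 (95% interval -1.48 to -1.20, adjusted p = 1.28e-05). PRIM1, the catalytic subunit of DNA primase, fell by 1.16, and FAM111B, a protease gene of the cell cycle (-1.24). Since an array averages over a culture, fewer dividing cells and less RNA per cell cannot be told apart. IL12B, the p40 chain of interleukin 12 and interleukin 23, read 8.73, 8.05 and 7.98 on the control arrays and 7.41, 6.73 and 6.53 on the glucosamine arrays and fell by 1.36. Replicate 1 of both groups stood higher than the others for IL12B, so the groups came within 0.57 of each other, although the value fell within every replicate pair. AIM2, a sensor of cytosolic DNA that forms inflammasomes, read 7.55, 7.68 and 7.81 on the control arrays and 6.15, 6.54 and 6.35 on the glucosamine arrays and fell by 1.33. GCSAM, a germinal centre signalling molecule, fell by 1.28, and SLC2A1, the glucose transporter GLUT1 (-1.33).

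A second set of large falls held enzymes. PRMT6, an arginine methyltransferase of histones, read 8.44, 8.41 and 8.44 on the control arrays and 7.17, 7.13 and 7.25 on the glucosamine arrays and fell by 1.24 (95% interval -1.37 to -1.12, adjusted p = 1.05e-05). HPDL, an enzyme of the mitochondrion that makes a coenzyme Q precursor, read 8.18, 8.14 and 8.15 on the control arrays and 6.87, 6.91 and 6.91 on the glucosamine arrays and fell by 1.26. PFAS, which carries out a step of purine synthesis, read 8.43, 8.38 and 8.31 on the control arrays and 7.15, 7.24 and 7.17 on the glucosamine arrays and fell by 1.19. In these 3 genes the arrays of a group differed by at most 0.12, far less than the fall. UROS, an enzyme of haem synthesis, fell by 1.22, ACAD9, an assembly factor of respiratory complex I (-1.24), TKFC, which phosphorylates dihydroxyacetone (-1.25), and PXMP2, a channel of the peroxisome membrane (-1.26). BPHL, a hydrolase, fell by 1.27, ELAC1, a tRNA 3′ endonuclease (-1.22), and PTCD2, an RNA-binding protein of the mitochondrion (-1.22). NSMCE1, a subunit of the SMC5/6 complex, fell by 1.23, ATG10, a ligase-like enzyme of autophagy (-1.22), AIG1 (-1.18), SORCS3, a sorting receptor (-1.19), and CNN2, an actin-binding calponin (-1.18). The histone genes H3C1 (-1.26), H1-5 (-1.26) and H1-1 (-1.23), the small nuclear RNA gene RNU5D-1 (-1.34) and the pseudogene DHFRP3 (-1.33) fell too, and all of these have close copies that can share probes.

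**Figure D3:**
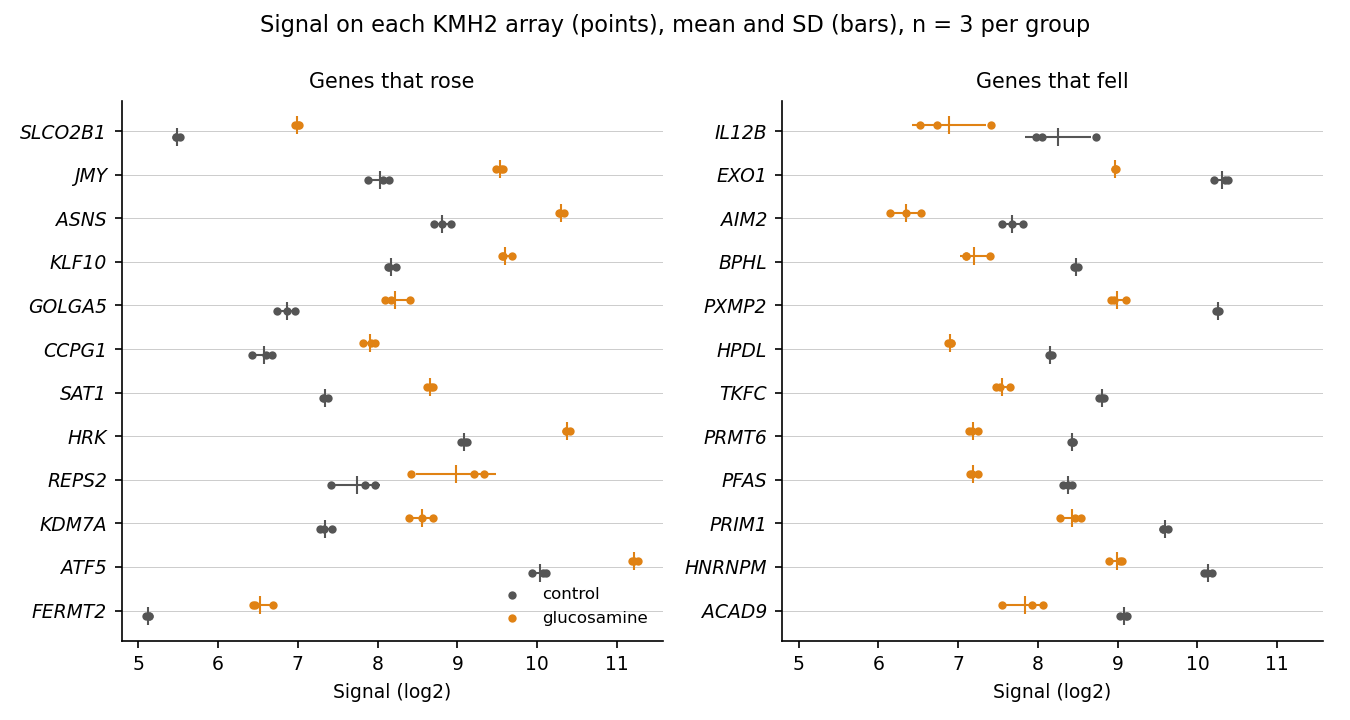
Signal (log2) on each of the 3 control arrays (grey) and 3 glucosamine arrays (orange) for 12 genes that rose and 12 that fell, with the mean (tick) and SD (bar) of each group. The groups do not overlap in any of the 24 genes, which the rule for ranking the largest rises and falls required. The spread is widest in REPS2 and IL12B.

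The most abundant transcripts that changed moved by small amounts. Among the 10 called genes of highest signal that rose were EEF1A1 (by 0.17) and EEF2 (by 0.26), the factors of translation elongation, EIF1 (by 0.29), which selects start codons, SSR2 (by 0.20), part of the translocon of the endoplasmic reticulum, HSPA5 (by 0.45), its main chaperone BiP, and the ribosomal protein genes RPL4, RPL12, RPS13, RPS15A and RPS25, by 0.16 to 0.26. Among the 10 that fell were genes of the actin cytoskeleton, ACTB (-0.23), PFN1 (-0.20) and CFL1 (-0.21), along with TUBB4B (-0.29), a tubulin, ENO1 (-0.35), the glycolytic enolase, LGALS1 (-0.33), galectin 1, PRG4 (-0.61), lubricin, PA2G4 (-0.22), a growth regulator, UTP4 (-0.21), of ribosome assembly, and the histone gene H3C2 (-0.42). Of these 20 calls 9 held without any 1 array, those of EIF1, EEF2, HSPA5, RPL12, ENO1, TUBB4B, LGALS1, PRG4 and PA2G4. Among the 9 only HSPA5 and PRG4 also held under every other setting. EEF2, RPL12 and PA2G4 lost their calls without replicate 2 of both groups and without replicate 3 of both groups. EIF1 and TUBB4B lost theirs without both replicate 3 arrays, and LGALS1 without both replicate 2 arrays. EIF1, ENO1 and PA2G4 lost theirs when all 8 arrays shared the spread. The other 11 of the 20 calls were lost without at least 1 array (adjusted p = 0.05 to 0.125), and each of the 6 arrays was decisive for some of them. Calls were also lost with quantile normalization (EEF1A1, RPL4 and RPS25) and with upper-quartile centring (PFN1 and UTP4). The probe set of largest spread cost ACTB, EEF1A1 and RPS25 their calls. Adjustment over every probe set, named or not, cost RPL4, RPS25, UTP4 and H3C2 theirs. For gene RPS25 the call was lost with the replicate block too (adjusted p = 0.0588). Losses among these 11 without a pair or with all 8 arrays are not listed.

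Some genes that stress or sugar responses often change did not pass here. CHAC1, which degrades glutathione and is a frequent ATF4 target, differed by -0.03 (95% interval -0.20 to 0.15). VLDLR, a lipoprotein receptor, differed by 0.11, CCND1, cyclin D1, by 0.08, CDKN1A, the cell cycle inhibitor p21, by 0.17 (adjusted p = 0.121) and MYC by -0.17 (adjusted p = 0.0651). By contrast ATF4 itself read 10.14, 9.85 and 9.90 on the control arrays and 10.89, 10.69 and 10.77 on the glucosamine arrays and rose by 0.82 (adjusted p = 0.00044). FGF21, a hormone of the starvation response, rose by 0.34. MDM2, the p53 ligase (0.22), and PFKFB3, which makes an activator of glycolysis (0.28), were called, but not without some arrays (adjusted p = 0.0919 to 0.101 without control replicate 2 or 3 or glucosamine replicate 3 for MDM2, adjusted p = 0.058 to 0.07 without control replicate 2 or 3 or glucosamine replicate 2 or 3 for PFKFB3).

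The rest of the account goes by gene lists, each read against the background of 12% rises, 14.1% falls and a median difference of 0.01 over all genes. In the eighth, ninth and highest deciles of signal 22.2%, 21.4% and 19.8% of genes rose, and 26.8%, 26.6% and 22.8% fell. Lists of high median signal are to be read beside those shares. Examples are actin genes (signal 9.49, 43.5% called), RNA polymerase factors (9.13, 41.5%) and mitochondrial import (9.10, 49.0%). Lists were not tested as sets, and those below share some members. In counts that follow, a value in parentheses is the count when the named array was left out, without both replicate 1 arrays ("without pair 1") or in the fit with a replicate block ("blocked"). It is given where the count moved by over 1.5 times and by at least 2 genes. Counts without both replicate 2 arrays, without both replicate 3 arrays or with all 8 arrays sharing the spread are not marked in this way. They were often lower, so a count without parentheses need not hold there. In that order Golgi rises went from 27 to 17, 16 and 16, and ZNF rises from 103 to 37, 45 and 46. Splicing falls went from 23 to 13, 10 and 8, and tRNA and rRNA modification falls from 24 to 14, 16 and 6.

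Among transcription factors of the bZIP class outside AP-1, which includes the family of ATF4, calls went upward. Of 30 measured 12 rose and 0 fell, with a median difference of 0.16. ATF5, which acts in the integrated and mitochondrial stress responses, read 10.11, 10.07 and 9.93 on the control arrays and 11.18, 11.21 and 11.27 on the glucosamine arrays and rose by 1.18. CEBPB rose by 0.80 and CEBPG, the dimer partner of ATF4, by 0.79. NFE2L1, which drives proteasome genes, rose by 0.68, and MAFG (by 0.62) and BACH1 (by 0.59), partner and antagonist of NRF2, rose as well. CREB3L2, CREBRF and CREM, relatives in the CREB branch, rose by 0.52, 0.44 and 0.37.

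Other factor families were mixed. Of 28 KLF and SP factors 7 rose (4 without control replicate 1, 2 or 3) and 0 fell, KLF11 by 0.68 next to KLF10. Of 27 ETS factors 5 rose and 4 fell (7 without glucosamine replicate 1), with SPIC, a factor of red pulp macrophages, up by 0.77 and ETS2 by 0.53. Among forkhead factors (39), 2 rose (0 without control replicate 2 or glucosamine replicate 3, 4 without glucosamine replicate 2, 4 blocked) and 4 fell (2 without control replicate 1 or 2 or glucosamine replicate 2), among them FOXP2, which fell by 0.80. Of 38 nuclear receptors 0 rose (3 without glucosamine replicate 1, 4 without pair 1, 3 blocked) and 1 fell (5 blocked), RXRA (-0.21, adjusted p = 0.0642 to 0.101 without control replicate 1 or 2 or glucosamine replicate 2 or 3). With upper-quartile centring 3 nuclear receptors were higher past the threshold and no member lower. Of 27 HOX genes 3 rose and 1 fell. Of 20 SOX factors 3 rose (0 to 1 without control replicate 1, 2 or 3 or glucosamine replicate 1, 2 or 3, 1 without pair 1) and 1 fell. Of 8 interferon regulatory factors 1 rose and 1 fell (3 without pair 1).

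Zinc finger genes of the ZNF family, most of which pair DNA-binding fingers with a KRAB repressor domain, leaned upward as a body. Of 476 measured 103 rose (62 to 68 without control replicate 2 or 3) and 32 fell, with a median difference of 0.09. On chromosome 19, where the large clusters of this family lie, 65 of 230 ZNF genes rose and 5 fell, against 38 and 27 of the 246 elsewhere in the genome. Without control replicate 2 these became 38 and 2 on chromosome 19 and 24 and 21 elsewhere, and without control replicate 3 they became 40 and 4, and 28 and 19. Without glucosamine replicate 3 rises elsewhere numbered 25, and without control replicate 1 falls on chromosome 19 numbered 2. The other 1025 genes of chromosome 19 showed 101 rises and 134 falls, or 64 and 115 without control replicate 3. ZNF805 read 7.26, 7.04 and 7.15 on the control arrays and 8.22, 8.04 and 8.15 on the glucosamine arrays and rose by 0.99. ZNF678 (by 0.94), ZNF383 (by 0.91) and ZNF850 (by 0.82) rose also, whereas ZNF804A, an outlying relative, fell by 1.04 and ZNF367, a factor of the cell cycle (-0.79). Members of the clusters are similar in sequence, so probes of neighbours may share RNA, and single genes are uncertain to that extent.

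Translation and RNA genes divided by step. Of 41 initiation factors 13 rose and 3 fell (5 without pair 1, 5 blocked). EIF1B rose by 0.65, the RNA helicase gene EIF4A2 by 0.51 (adjusted p = 0.696 with its probe set of largest spread), and EIF2S2 and EIF2B2, subunits of the factors through which stress kinases act, by 0.50 and 0.49, while the scaffold EIF4G1 fell by 0.38. Of 9 kinases and phosphatase regulators of eIF2alpha 5 rose and 0 fell: PPP1R15A, the stress-induced phosphatase subunit GADD34, rose by 1.18, EIF2AK3, the sensor kinase PERK, by 0.60 and its inhibitor DNAJC3 by 0.46. Among 5 measured host genes of small nucleolar RNAs, a class that includes short-lived transcripts of growth control, 4 rose. EPB41L4A-AS1 rose by 0.94 and SNHG32 by 0.90.

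Splicing genes went the other way. Of 44 SR factors and spliceosome genes 23 fell (15 without glucosamine replicate 3) and 3 rose, with a median difference of -0.17. SRSF2, which recognises exonic enhancers, read 10.72, 10.69 and 10.68 on the control arrays and 9.96, 9.97 and 9.94 on the glucosamine arrays and fell by 0.74. The arrays of each group lay within 0.03 of each other for SRSF2, and the groups were 0.72 apart. SRSF1 fell by 0.64, TRA2A (-0.62) and SRSF6 (-0.59). The 3 members that rose were CLK1 (0.52), CLK3 (0.62) and CLK4 (0.56), kinases that phosphorylate SR proteins, while CLK2, of the same family, fell by 0.56. Of 22 heterogeneous nuclear ribonucleoproteins 10 fell and 0 rose. HNRNPM read 10.12, 10.18 and 10.08 on the control arrays and 8.89, 9.05 and 9.03 on the glucosamine arrays and fell by 1.14 (adjusted p = 2.74e-05).

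Enzymes that modify tRNA and rRNA leaned down too: of 57 measured, 24 fell and 6 rose (median -0.15). QTRT1, which inserts queuosine, fell by 0.77, NAT10, an RNA acetyltransferase (-0.72), OSGEP, of the KEOPS complex (-0.68) and METTL1, a tRNA methyltransferase (-0.64). Among 29 nucleoporins 13 fell and 1 rose. NUP210, a membrane ring protein of the pore, fell by 0.71, and the member that rose was SEC13 (0.56), which also serves in the COPII coat. Importins and exportins were split (29 measured, 7 rose and 6 fell), XPOT, the exporter of tRNA, rising by 0.68 and CSE1L falling (-0.46). Among RNA polymerase II and III and their general factors (41), 13 fell and 4 rose (2 without control replicate 2), with POLR2L at -0.73 and MAF1, the repressor of RNA polymerase III, at 0.49. In the exosome, deadenylase and decapping list (41) 13 fell and 7 rose (3 to 4 without control replicate 3 or glucosamine replicate 3), among them PAN2, a poly(A) nuclease, which fell by 0.96. Among nonsense-mediated decay factors (17), 5 fell and 2 rose, and among Mediator subunits (29) 7 rose (4 without control replicate 2 or 3) and 5 fell (3 without control replicate 1, 2 or 3 or glucosamine replicate 2 or 3).

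**Figure D4:**
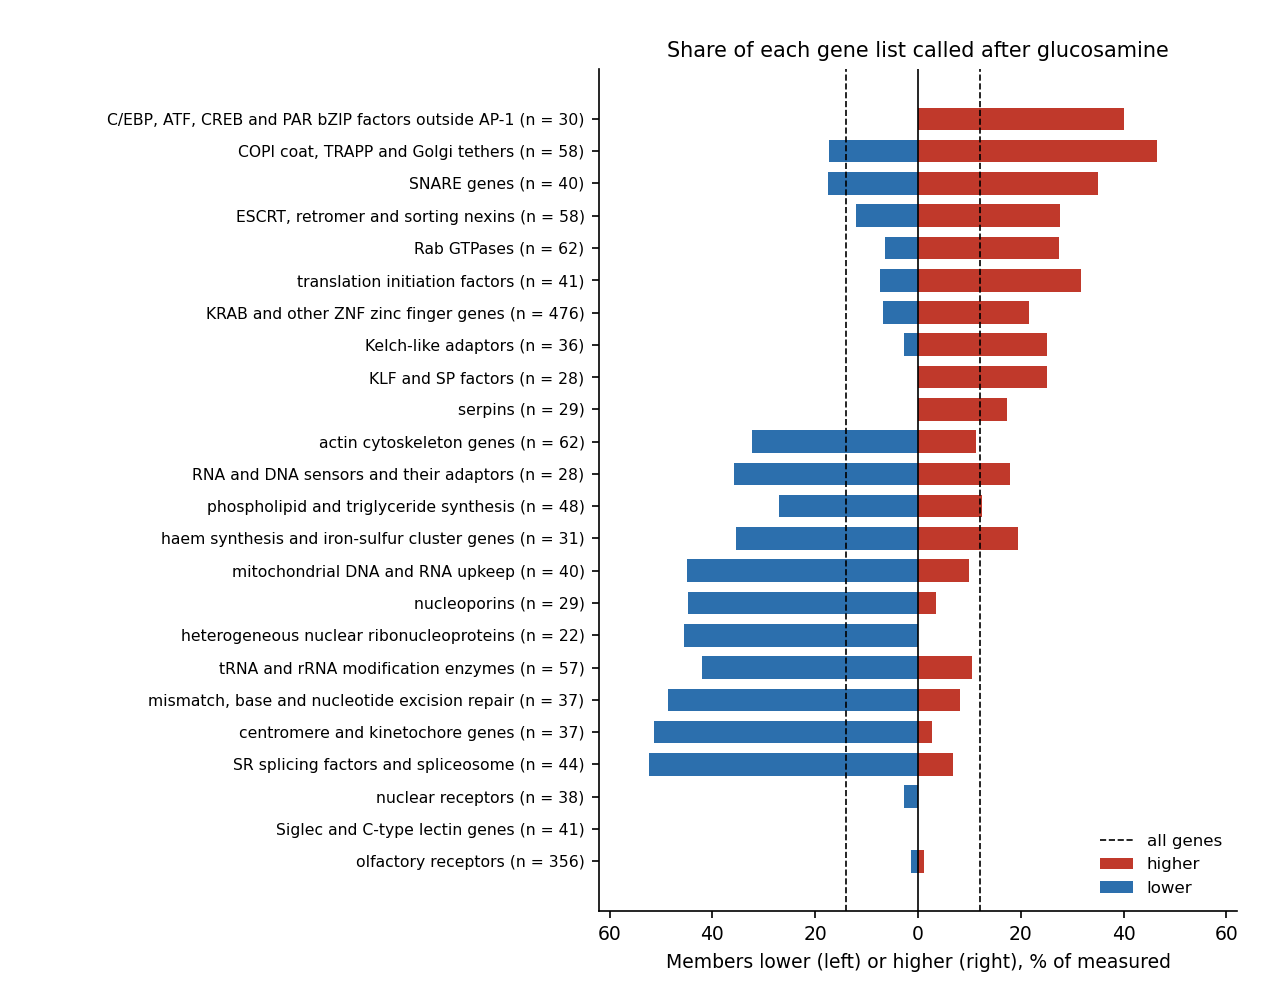
Members of 24 gene lists that rose (red, to the right) or fell (blue, to the left), in percent of the members measured, with dashed lines at the shares over all genes, 12% and 14.1%. Bars of bZIP, Golgi, SNARE and initiation factor genes lean right, those of splicing, kinetochore, repair and tRNA modification genes lean left, and olfactory receptors stay near 0.

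Genes that keep and divide the genome fell in lists beyond those of replication. Of 37 centromere and kinetochore genes 19 fell and 1 rose (median -0.26), among them KNTC1, a checkpoint component of the kinetochore (-1.05), CENPH (-0.74), and SPC25, which binds microtubules (-0.69). The member that rose was PMF1 (0.34). Of 37 genes of mismatch, base and nucleotide excision repair 18 fell and 3 rose (median -0.23). EXO1 led, followed by ERCC2 (-0.86), a helicase of TFIIH, MUTYH (-0.81), a glycosylase, and PMS2 (-0.75), while DDB2, a damage sensor induced by p53, rose by 0.41. Among end joining and checkpoint genes (28), 9 fell (14 blocked) and 2 rose, NHEJ1 rising by 0.90 against falls of MDC1 (-0.63) and PRKDC (-0.57). Of 27 cohesin and condensin genes 8 fell and 2 rose, ESCO2, which acetylates cohesin, falling (-1.0) and the condensin subunit NCAPD3 (-0.95). Of 15 telomere genes 5 fell (3 without control replicate 1, 3 without pair 1) and 2 rose, CTC1 falling (-0.42).

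Chromatin regulators are given by class. Of 17 histone lysine demethylases 4 rose and 0 fell. Besides KDM7A these were KDM4A (0.72), KDM6B (0.47) and KDM4C (0.38). Of 30 lysine methyltransferases 9 fell and 3 rose (5 without glucosamine replicate 1, 5 without pair 1), SUV39H1, which marks heterochromatin, falling (-0.61). Among chromatin remodellers and histone chaperones (44), 14 fell and 6 rose (2 to 3 without control replicate 3 or glucosamine replicate 3), SMARCC2 of the SWI/SNF complex falling (-0.88), the ATPases RUVBL1 (-0.67) and RUVBL2 (-0.66) likewise, and CHD2 rising by 0.66. Deacetylases and sirtuins (21) were evenly split: 4 rose (2 without control replicate 2 or 3 or glucosamine replicate 2) and 4 fell: SIRT1 rose by 0.66 and HDAC1 fell by 0.55. Acetyltransferase and bromodomain genes (20) were split as well (4 rose, 4 fell), BRPF3 rising by 0.77.

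Membrane traffic genes leaned upward, with the highest share of rises in the Golgi list. Of 58 genes of the COPI coat, TRAPP complexes and Golgi tethers 27 rose and 10 fell (6 without control replicate 1 or 2), with a median difference of 0.17. GOLGA5 read 6.87, 6.74 and 6.97 on the control arrays and 8.41, 8.16 and 8.09 on the glucosamine arrays (adjusted p = 7.65e-05). COPB2, a subunit of the COPI coat that returns proteins from the Golgi to the endoplasmic reticulum, read 8.94, 8.84 and 8.94 on the control arrays and 9.70, 9.62 and 9.57 on the glucosamine arrays and rose by 0.72. GOLGA2 rose by 0.87, ARF4, a GTPase of coat assembly, by 0.67, and COG3, of the tether of retrograde vesicles, by 0.67, but COG2, of the same complex, fell by 0.73 and TRAPPC12 (-0.62). Of 40 SNARE genes, which fuse vesicles with their targets, 14 rose and 7 fell, BNIP1 rising by 0.94, STX5 of the Golgi by 0.69 and STX2 of the plasma membrane falling (-0.63). Of 62 Rab GTPases 17 rose (11 without control replicate 2 or 3) and 4 fell (2 without control replicate 2), among them RAB9A, which acts between endosomes and the Golgi, up by 0.88 and RAB1A, of transport to the Golgi, up by 0.42. In the ESCRT, retromer and sorting nexin list (58) 16 rose (9 to 10 without control replicate 1, 2 or 3) and 7 fell, STAM2 rising by 0.68 and VPS25 falling (-0.97). Of 21 V-ATPase subunits 3 rose (5 without glucosamine replicate 1) and 3 fell (1 without control replicate 3).

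Most cytoskeletal lists held more falls than rises, although single arrays moved the counts, and the list of dynein and dynactin genes did not. Of 62 actin genes 20 fell (9 to 12 without control replicate 1 or 2 or glucosamine replicate 2 or 3) and 7 rose (2 to 4 without control replicate 2 or 3 or glucosamine replicate 2 or 3), by small amounts, among them ARPC4 (-0.56) and ARPC1B (-0.42) of the branching complex and LMNB1, a nuclear lamin (-0.60). Of 37 kinesins 11 fell and 2 rose (6 without glucosamine replicate 1, 6 without pair 1, 5 blocked), the mitotic motors KIF20B (-0.63) and KIF18B (-0.53) among the falls. Of 27 tubulins and gamma-tubulin complex genes 6 fell (2 without control replicate 1 or 2 or glucosamine replicate 2 or 3) and 0 rose (2 without pair 1, 2 blocked), with TUBGCP5 at -0.86. Among dynein and dynactin genes (42), 7 rose (4 without glucosamine replicate 3) and 5 fell (1 to 3 without control replicate 1, 2 or 3 or glucosamine replicate 2 or 3). Adhesion families follow. Of 24 integrins 3 rose (5 blocked) and 0 fell, with ITGAV up by 0.58. Of 68 cadherins and protocadherins 2 rose (4 without pair 1) and 0 fell. Of 21 ephrins and Eph receptors 1 rose (3 without pair 1, 3 blocked) and 0 fell. Of 31 semaphorins and plexins 2 rose (5 without glucosamine replicate 1, 7 without pair 1) and 1 fell. Of 28 tetraspanins 5 fell (3 without control replicate 1, 2 or 3 or glucosamine replicate 2 or 3) and 2 rose (4 blocked), CD151 falling (-0.82).

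**Figure D5:**
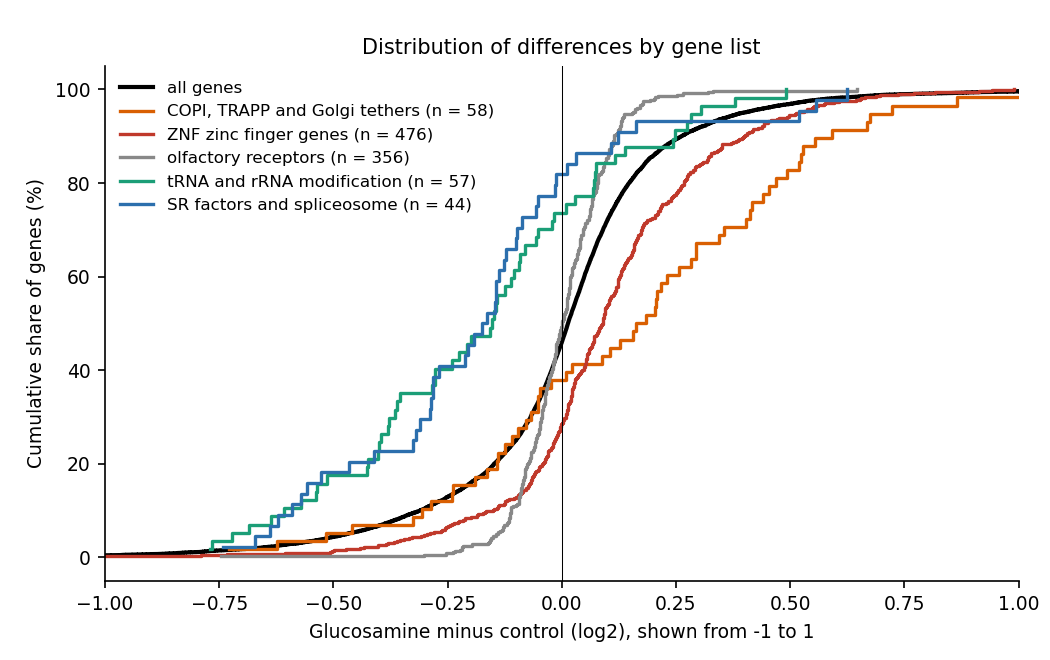
Cumulative share of genes (percent) against the difference between glucosamine and control (log2, shown from -1 to 1) for all genes (black) and 5 lists. The curve of the 58 Golgi genes lies to the right of all genes over its upper part, that of the 476 ZNF genes lies to the right throughout, those of the 57 tRNA and rRNA modification and 44 splicing genes lie to the left, and that of the 356 olfactory receptors is steep around 0.

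Genes of protein turnover showed a lean upward in the substrate adaptors. Of 36 Kelch-like adaptors 9 rose and 1 fell (3 without pair 1). KLHL24 rose by 1.04 and its chromosomal neighbour KLHL6, a gene of B cells, by 0.91. Of 57 F-box genes 13 rose and 6 fell, FBXW10B rising by 1.07, FBXO30 by 0.52 and FBXO5, an inhibitor of the mitotic ligase APC/C, falling (-0.77). Among ubiquitin-conjugating enzymes (25), 5 rose and 3 fell, with UBE2H and UBE2B up by 0.59 and 0.59. Among TRIM ligases (54), 10 fell (6 without control replicate 1 or 3 or glucosamine replicate 3) and 5 rose (3 without control replicate 2 or 3 or glucosamine replicate 2 or 3, 8 without glucosamine replicate 1, 8 without pair 1, 9 blocked), TRIM16 rising by 0.97 and TRIM14 falling (-0.83). Ubiquitin-specific proteases (48) were even: 7 rose (3 to 4 without control replicate 1, 2 or 3 or glucosamine replicate 2 or 3) and 7 fell (3 to 4 without control replicate 2 or 3 or glucosamine replicate 3), and among SUMO and NEDD8 enzymes (31) 7 fell and 4 rose (2 without control replicate 2, 7 without glucosamine replicate 1), with SENP8 down (-0.78). Among chaperonin and prefoldin genes (22), 4 rose and 3 fell. Of 32 caspase, inflammasome and necroptosis genes 2 rose and 3 fell, or 15.6%. The median signal of this list was 5.71, in the fifth decile of all genes, where 18.3% were called. XIAP, an inhibitor of caspases, rose by 0.38 beside the fall of AIM2.

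In the mitochondrion, genes that maintain and read its DNA and RNA fell: of 40 measured, 18 fell (10 to 11 without control replicate 1 or 2 or glucosamine replicate 3) and 4 rose (1 to 2 without control replicate 1 or 2 or glucosamine replicate 2 or 3) (median -0.19). MTERF2 fell by 0.91, RNASEH1 (-0.78) and the elongation factor GFM1 (-0.65). Import and dynamics genes (49) were divided: 14 fell and 10 rose. TIMM8B, a small carrier of the intermembrane space, fell by 0.84, while the stress protease LONP1 rose by 0.63 and the chaperone HSPA9 by 0.41.

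Amino acid and polyamine lists held calls in both directions. Of 20 genes for synthesis of proline, aspartate, asparagine, glutamine, alanine and arginine 4 rose and 3 fell. The rise of ASNS was followed at a distance by PYCR1 (0.36). Of 26 genes for breakdown of aromatic, basic and sulfur amino acids 2 rose and 6 fell, with GCDH, of lysine breakdown, at -0.85. Of 20 polyamine genes 1 rose (3 without glucosamine replicate 1, 4 without pair 1, 3 blocked), the catabolic SAT1, and 6 fell. SRM, spermidine synthase, fell by 0.31, AZIN1, which protects ornithine decarboxylase (-0.36), and DHPS, of hypusine formation (-0.35). ODC1, the first enzyme of synthesis, differed by -0.22 and lost its call with upper-quartile centring and without some arrays (adjusted p = 0.0623 to 0.0703 without control replicate 1 or 3 or glucosamine replicate 2 or 3). With upper-quartile centring the list split differently, into 5 rises and 4 falls. Of 20 NAD genes 2 rose and 2 fell (0 without control replicate 3 or glucosamine replicate 3).

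Genes for metals and haem were mixed. Of 31 genes of haem and iron-sulfur clusters 11 fell and 6 rose. UROS, PPOX (-0.41) and UROD (-0.37), all of the later steps of haem synthesis, fell, but ALAS1, the first enzyme, rose by 0.46 and BLVRB, which reduces a product of haem breakdown, by 0.70. Among iron genes (27), 3 rose (1 without control replicate 1 or 3 or glucosamine replicate 2 or 3) and 4 fell (1 to 2 without control replicate 1, 2 or 3 or glucosamine replicate 2 or 3, 2 without pair 1), FTL, ferritin light chain, rising by 0.48. Of 13 metallothioneins 4 fell and 0 rose, with MT2A at -0.42, and the family is close in sequence. Of 24 zinc transporters 5 rose (3 without control replicate 2) and 1 fell. SLC39A9 rose by 0.89, SLC39A14 by 0.57 and SLC39A7, of the endoplasmic reticulum, by 0.40 (adjusted p = 0.0518 without control replicate 2). Selenoprotein genes (31) were split (7 rose, 6 fell), TXNRD1, a reductase under NRF2, rising by 0.36 and MSRB1 falling (-0.80).

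Lipid lists of the peroxisome and of phospholipid synthesis held more falls than rises. Of 32 peroxisome genes 8 fell and 2 rose, with NUDT7 at -0.63 and PHYH at -0.51. Of 48 genes of phospholipid synthesis 13 fell and 6 rose (3 without control replicate 3 or glucosamine replicate 2), with LPCAT3, which adds polyunsaturated chains, at -1.0 and CDS1 at 0.75. Among sphingolipid genes (38), 10 rose (5 to 6 without control replicate 2 or 3) and 5 fell, SGPL1, the lyase that ends the pathway, rising by 0.63. Among aldehyde and aldo-keto enzymes (33), 7 fell and 3 rose, ALDH5A1 falling (-1.01) and ALDH2 rising by 0.43. Of 48 cytochrome P450 genes 3 rose and 4 fell (1 to 2 without control replicate 2 or 3 or glucosamine replicate 1, 2 or 3). Of 18 glutathione S-transferases 1 rose and 3 fell (5 without glucosamine replicate 1). Of 42 ABC transporters 4 rose (8 without glucosamine replicate 1, 7 without pair 1, 8 blocked) and 4 fell (2 without control replicate 1 or 2). Of 54 solute carriers of monocarboxylates, nucleosides and others 6 rose (2 to 3 without control replicate 1 or 2 or glucosamine replicate 2) and 6 fell. Of 42 exchangers of sodium, protons and bicarbonate 6 rose (2 to 3 without control replicate 2 or 3 or glucosamine replicate 3) and 7 fell (3 without control replicate 3 or glucosamine replicate 2 or 3), SLC26A2, a sulfate transporter, falling (-0.67).

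Signalling lists followed. In the TGF-beta, activin and BMP list (51) 9 rose and 4 fell. The decoy receptor BAMBI rose by 0.83 and the activin receptor ACVR2A by 0.72, while the receptor TGFBR1 fell by 0.60 and its effector SMAD3 (-0.74). In the Notch list (38) 10 fell (5 to 6 without control replicate 1 or 2 or glucosamine replicate 3) and 4 rose: NCSTN, a subunit of gamma-secretase, fell by 0.79, and the protease ADAM17 rose by 0.78 and the regulator DTX2 by 1.16. In the Wnt list (52) 5 rose (3 without control replicate 2) and 3 fell (1 without control replicate 2 or glucosamine replicate 3), with the receptor FZD7 up by 0.98. Among PI3 kinase genes (30), 7 rose (3 without control replicate 2 or 3) and 4 fell (2 without control replicate 2 or 3 or glucosamine replicate 2 or 3), the regulatory subunit PIK3R1 falling (-0.62). Among phosphodiesterases (21), 5 fell (3 without control replicate 1 or glucosamine replicate 3) and 4 rose, PDE11A falling (-1.12) and PDE4B (-0.81). Among MAP kinase phosphatase and Sprouty genes (20), 4 rose (2 without control replicate 2 or 3 or glucosamine replicate 3) and 3 fell, DUSP16 rising by 0.79. Among regulators of G-protein signalling (21), 2 rose and 3 fell, RGS1 and RGS13, neighbours on the chromosome, falling (-0.77 and -0.82). Of 26 Hippo genes 3 rose and 1 fell. Of 37 protein kinase C, phospholipase C and diacylglycerol kinase genes 2 rose (4 without control replicate 1, 6 without pair 1, 4 blocked) and 5 fell. Of 21 clock genes 2 rose and 4 fell (2 without control replicate 1, 2 or 3). Of 84 potassium channels 5 rose (3 without control replicate 1 or glucosamine replicate 3, 8 blocked) and 7 fell. Of 27 purinergic genes 3 rose (1 without glucosamine replicate 3) and 1 fell, with P2RX7 up by 1.14 (adjusted p = 0.0525 without glucosamine replicate 3).

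Immune lists begin with the sensors of foreign nucleic acids. Of 28 sensors and adaptors 10 fell and 5 rose. RIGI, a sensor of viral RNA, fell by 0.70, its adaptor MAVS (-0.49) and STING1, the adaptor of the DNA sensor CGAS (-0.44), whereas IFIH1, the sensor MDA5, rose by 0.67. Of 38 genes of prostaglandins and leukotrienes 4 rose and 3 fell (5 blocked), PLA2G4C rising by 0.90 and the receptor PTGER4 falling (-0.90). Of 29 serpins 5 rose and 0 fell. SERPINB10 rose by 0.85 and SERPINE2 by 0.78. Of 27 cathepsins and cystatins 4 rose (2 without control replicate 2 or 3 or glucosamine replicate 2 or 3) and 1 fell. CSTA, an inhibitor of cathepsins, rose by 1.16. None of 41 Siglec and C-type lectin genes passed the limma test, 9 of them having an unadjusted p under 0.05, with 1 or fewer called in either direction under any omission of an array and 2 higher past the threshold with the replicate block. Of 13 GIMAP and GBP genes 1 rose and 1 fell (3 without pair 1, 3 blocked). Of 16 Fc receptors 1 rose and 1 fell. Of the 13 Hodgkin markers 9 fell and 1 rose. GATA3, a T-cell factor expressed by these tumour cells, fell by 1.04, BATF3, a factor of the AP-1 class (-0.87), TNFRSF8 (-0.73) and CCL17, a chemokine that attracts T cells (-0.47), whereas CSF1R, a growth factor receptor, rose by 0.54. None of the 9 B-cell genes passed the limma test, 2 of them having an unadjusted p under 0.05. In the fit with the replicate block 1 of them fell, the gene EBF1 (-0.25, adjusted p = 0.0148), as did 1 when glucosamine replicate 1 was left out, and with neither replicate 1 array in the fit 2 rose and 2 fell.

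Within the mostly silent families a few members stood out. TAS2R3, TAS2R4 and TAS2R5, bitter taste receptor genes that neighbour each other on the genome, rose by 0.91, 1.11 and 1.15. TAS2R5 read 6.23, 6.56 and 6.30 on the control arrays and 6.78, 7.98 and 7.77 on the glucosamine arrays (adjusted p = 0.0167). Treated replicate 1 lay close to the controls, at 0.22 above the highest of them, and the 2 other treated arrays lay more than 1 above. The calls of TAS2R4 (adjusted p = 0.0642 to 0.097 without control replicate 1, 2 or 3 or glucosamine replicate 2 or 3) and TAS2R5 (adjusted p = 0.0558 to 0.0632 without control replicate 1 or 3 or glucosamine replicate 3) were lost on leaving out single arrays. Of the 24 bitter taste receptors 1 fell, TAS2R10 (-0.42), and 20 did not pass. Of 356 olfactory receptors 4 rose (2 without control replicate 1 or 2 or glucosamine replicate 3, 8 without glucosamine replicate 1, 7 without pair 1) and 5 fell (1 without control replicate 2 or 3 or glucosamine replicate 3, 8 without pair 1, 9 blocked), OR51B2 rising by 0.65 and OR2B6 falling (-0.75). Of 63 keratin-associated proteins 1 rose, of 24 beta-defensins 1 fell, and of 26 cornified envelope and small proline-rich genes 1 rose and 1 fell.

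Of 16558 protein coding genes 27.2% were called, at a median signal of 6.44. Shares among non-coding genes were lower, at lower signals, and these differences were not tested. Of 525 long non-coding RNAs 34 rose and 36 fell (13.3%, median signal 4.86), of 188 small nucleolar RNAs 18 rose and 10 fell (14.9%), of 374 transcribed pseudogenes 28 rose and 29 fell (15.2%), and of 180 microRNA genes 1 rose and 8 fell (5.00%, median signal 3.94). The array reads the precursor transcript or its host, not the mature microRNA, whose sequences are shown to identify the members that fell. Beside MIR142, the falls included MIR199A2 (-0.96, adjusted p = 0.0501 without control replicate 2), MIR21 (-0.54), MIR32 (-0.49, adjusted p = 0.0655 to 0.0932 without control replicate 3 or glucosamine replicate 1 or 3), MIRLET7G (-0.44) and MIR25 (-0.42). The RefSeq sequences (GRCh38.p14) carry the seed, bases 2 to 8, in capitals, and are shown for all named here but MIRLET7G. MIR32 and MIR25 share theirs.
hsa-miR-142-3p: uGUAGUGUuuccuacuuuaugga
hsa-miR-199a-5p: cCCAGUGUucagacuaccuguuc
hsa-miR-21-5p: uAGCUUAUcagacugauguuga
hsa-miR-32-5p: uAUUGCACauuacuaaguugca
hsa-miR-25-3p: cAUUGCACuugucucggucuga
MIR25 lies within the replication helicase gene MCM7, which read 10.76, 10.74 and 10.70 on the control arrays and 10.20, 10.36 and 10.24 on the glucosamine arrays and fell by 0.47. MIR21 lies next to VMP1, a gene of autophagy, which differed by 0.17 (adjusted p = 0.0656), though it passed on leaving out 1 array (adjusted p = 0.0335 without glucosamine replicate 2).

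By chromosome the share of genes called ran from 18% on chromosome 20 to 30.1% on chromosome 10. Few pairs of neighbours moved together by much. Of 17882 pairs of measured genes adjacent on a chromosome 307 had both members risen and 438 both fallen. With 12% of all genes risen and 14.1% fallen, unrelated neighbours would also give such pairs. Their expected number was not worked out, for these counts or for those past a fold below. Whether neighbours moved together more often than unrelated genes was thus not tested. In 48 pairs both members moved at least 1.5-fold the same way, of which 5 pairs overlap in the annotation and may share probes. In 5 pairs both moved at least 2-fold: TAS2R4 with TAS2R5, FAM86C1P with XNDC1N, APOBEC3F with APOBEC3G, and the histone pairs H1-1 with H3C1 and H2BC14 with H2AC15. APOBEC3F and APOBEC3G are similar in sequence, and their values are uncertain to that extent. Pairs past 1.5-fold that do not overlap in the annotation included P2RX7 and P2RX4, ion channels gated by ATP (1.14 and 0.73), and KLHL6 and KLHL24. Each of these pairs belongs to 1 gene family, and their probes were not compared.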

How the data were processed

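The authors deposited 1 log2 signal for each probe set, and these were used for the 3 KMH2 control and 3 KMH2 glucosamine arrays (HuGene-1_1-st-v1, 33297 probe sets, per the labels' protocols). The tools of background correction, summarization and normalization are not given in the sources used here. Neither scanner output nor detection calls were analysed here. That the unit is log2 was read from the values. Array numbers limit the precision, and the median SD between replicates was 0.067 in control and 0.080 in glucosamine arrays. Low signals hold background of unknown size, which shrinks folds, and signals of different genes were not compared as RNA amounts.

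The platform annotation, dated 2016, gave 19181 probe sets 1 symbol, 2055 several and 12061 none, and the last 2 sets were not named. For 895 genes with several probe sets that of the highest mean was kept. Entrez identifiers of 19143 probe sets matched RefSeq (GRCh38.p14), the source of promoter and microRNA sequences. The build behind the annotation is not given in the sources used here. Genes of the Y chromosome and XIST were counted but are not shown singly.

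Groups were compared with limma 3.58.1 in R 4.3.3 (lmFit, eBayes, two-sided, Benjamini-Hochberg adjustment over 19181 probe sets, threshold 0.05), and the fit was tested on simulated data. All adjusted p-values and 95% intervals come from it. Both groups carry the replicate numbers 1 to 3, and the series' design speaks of cells before and after glucosamine. Between arrays of the same number, deviations from the group mean correlated at 0.46, 0.23 and 0.23. Between different numbers they correlated at -0.37 to 0.25, the highest being control 2 with glucosamine 3. Replicate 1 thus stood apart, but these values do not show which arrays of replicates 2 and 3 belong together. The reported fit does not pair the arrays, and the fit with a replicate block pairs them by number. The paired fit and 18 other alternatives are given in the closing section.

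Members and the 104 gene lists, cell type markers among them, were chosen with earlier results of these data known. Genes were named by rule: the 40 largest rises and falls with groups that do not overlap (ranks 1 to 12 only where needed), the 10 of smallest p and the 10 of highest signal in each direction, the 4 of smallest p in each list, cell type markers, a set of stress and sugar genes, and genes next to the threshold. These 58 genes were named outside it, after their values were seen: ALDH2, AOC2, AOC3, BACH1, BLVRB, C1R, C1RL, CD48, CENPH, CLK1, CLK2, CLK4, COG3, CREB3L2, CREBRF, CREM, DDB2, EIF2B2, EIF4G1, FBXO30, GOLGA2, HSPA9, IFI44, IFI44L, KIF18B, KNTC1, LONP1, LPCAT3, MAF1, MAFG, MCM7, METTL1, MIR199A2, MIR21, MIR25, MIR32, MIRLET7G, MTERF2, ODC1, PMF1, PPOX, RAB1A, RIGI, RUVBL2, SEC13, SERTAD1, SERTAD3, SLAMF7, SRM, SRSF1, SRSF6, STX2, TIMM8B, TRAPPC12, UROD, VMP1, ZNF367 and ZNF678.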

Additional observations from a re-analysis of the deposited data

How the results depend on the processing

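With quantile normalization 2298 rose and 2345 fell, with upper-quartile centring 2529 and 2197, without dim probe sets 2020 and 2509, and with adjustment over every probe set, named or not, 1676 and 2082. With array weights the counts were 3064 and 3137, and with a trend and robust variance 2250 and 2654. When all 8 arrays shared the spread they fell to 951 and 1120. That fit takes both Ramos arrays as 1 group, as titled. The design text places 1 of them after glucosamine, so that a treatment difference may be part of its spread. With a replicate block, the paired analysis, 2542 rose and 2863 fell, both within 1.5 times the reported counts. Leaving out 1 array gave 1501 to 2451 rises and 1927 to 2554 falls, and leaving out replicate 1, 2 or 3 of both groups gave 849 to 2522 rises and 1268 to 2638 falls, with 972 and 1380 without replicate 2. The omissions leave fewer samples, and the cause of the other shifts was not tested. Of the reported calls 1304 rises (60.4%) and 1727 falls (68.2%) kept their call without any 1 array, 722 and 1067 also without any pair, and 536 (24.8%) and 743 (29.3%) under all settings but the dim filter. Counts past 2-fold stayed between 61 and 98 for rises and between 70 and 92 for falls.

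The difference of gene CCND1, not called, was -0.025 without control replicate 2 and at most 0.16 under the omissions of an array or a pair. That of gene CHAC1, not called, was 0.0025 with upper-quartile centring, 0.048 without control replicate 3, 0.0035 without glucosamine replicate 2 and 0.049 without replicate 3 of both groups, the omissions running from -0.093 to 0.049. That of gene TXNIP, not called, was -0.025 with array weights, -0.015 without control replicate 3, -0.012 without glucosamine replicate 1 and -0.021 without replicate 1 of both groups, the omissions running from -0.021 to 0.056.

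No dose is stated in the sources used here and the time was 24 h only, so an early and a late response cannot be told apart. With 3 arrays per group from 1 line, p-values cover the spread between these cultures. Signal over background could not be read without detection calls, so a gene near the bottom of the scale that did not pass cannot be told apart from one that is not expressed.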

Other observations

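Some neighbouring genes with related products rose at least 1.5-fold together and do not overlap in RefSeq's annotation. IFI44L and IFI44, interferon-induced genes, rose (1.17 and 0.94). AOC2 and AOC3, copper amine oxidases, rose (1.07 and 0.99). SERTAD1 and SERTAD3, transcriptional coregulators of the same family, rose (0.67 and 0.72). C1R and C1RL, proteases of the complement family, rose (0.66 and 0.72). CD48 and SLAMF7, receptors of the SLAM family, rose (0.65 and 0.90). AOC2 and AOC3 are similar in sequence and their probes were not compared. All these genes were chosen after their values were seen.

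Taken pair by pair, treated minus control of the same number, the SD of the differences over all genes was 0.30, 0.29 and 0.29. Genes at least 2-fold higher numbered 78, 98 and 92, and genes at least 2-fold lower numbered 107, 91 and 97.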
